A study of Haplochromis burtoni and Eretmodus cyanostictus and Lepidiolamprologus attenuatus with 30 samples.

Results

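In the bulk transcriptomes of cichlid intestines, 115 of 38425 counted genes passed count limits for expression in the gut of a single species. The species were Haplochromis burtoni (43 genes), Eretmodus cyanostictus (40 genes) and Lepidiolamprologus attenuatus (32 genes). The members were chosen by their counts: a mean of at least 2 CPM (the count scaled by the library's total on genes) over the 10 libraries of its own species and at most 3 counts in each of the 20 libraries of the others. The limit of 300 genes was not reached. Because of that choice, their species difference is given as a description without a test. The variation along the gut was tested within the expressing species. It is not fully independent of the choice, because the floor of 2 CPM was a mean over the same 10 libraries, and a gene that is high in 1 section could pass through that section alone.

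Each group was 1 of 5 equally long sections of the intestine of 1 species, with 2 fish per group and 30 libraries in all. The labels number the sections 1 to 5 along the axis of the gut and do not state which end is 1, so sections are named by number. The labels give no treatment, genotype, sex, age or origin of the fish. The column names call the H. burtoni animals fish 1 and fish 2, those of E. cyanostictus fish 3 and fish 4, and those of L. attenuatus fish 6 and fish 7. The replicates were therefore separate fish, while the 5 sections of a fish came from the same animal.

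Cichlids of the Lake Tanganyika region differ widely in diet. E. cyanostictus grazes algae from rock, L. attenuatus is a predator, and H. burtoni is a generalist. In bony fishes the anterior gut is known for the digestion and uptake of fat, sugars and peptides, and the posterior gut for the uptake of whole protein and for immune functions. A gene seen in the gut of 1 of several related species may be missing or diverged in the genomes of the others, or present there but silent in this organ. Counts alone cannot tell these apart, nor can they be told apart from reads that did not align to the reference used.

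Genes carry only ID numbers in the table, and none has a name beside it. Looked up among 28690 H. burtoni genes of a RefSeq annotation, 0 of the IDs were found. The members therefore carry no names or known roles, and marker genes of the gut could not be looked up. Members are called here by a letter for the species that expressed them (B for H. burtoni, E for E. cyanostictus, L for L. attenuatus) and their rank in mean CPM within it, so that B1 is the highest of H. burtoni. CPM is not corrected for gene length, which was not known, so the ranks order counts and not transcripts. In bulk tissue, fewer cells of a type and less RNA per cell cannot be told apart. Members that share reads with a close copy elsewhere in the genome are uncertain, since the counting could split or lose such reads.

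A library held 6311892 to 11353391 counts on genes, so that the ceiling of 3 counts stood for 0.264 to 0.475 CPM. The 2 fish of E. cyanostictus differed most in section 1, where log2 CPM correlated across genes with r = 0.811, against r = 0.947 in section 1 of either of the other species. Fits and member counts of E. cyanostictus were therefore also made without each fish.

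The members were a small part of each transcriptome. They made up 0.252% of the 17094 genes at or over 2 CPM in H. burtoni, 0.228% of 17562 in E. cyanostictus and 0.192% of 16627 in L. attenuatus. Their median level was 4.20 CPM in H. burtoni, 3.44 CPM in E. cyanostictus and 4.20 CPM in L. attenuatus. Of all 115 members, 72 were under 5 CPM and 18 were at 10 CPM or more. Most were thus faint, and a few stood far above the rest. Just inside the floor, the lowest 2 members of each species lay at 2.01 and 2.03 CPM in H. burtoni and at 2.01 and 2.35 CPM in L. attenuatus, and the second lowest of E. cyanostictus at 2.01 CPM. Just outside it, the highest genes left out were at 1.92 CPM in H. burtoni, 1.91 CPM in E. cyanostictus and 1.98 CPM in L. attenuatus. The members whose highest count elsewhere was exactly 3 numbered 10, 15 and 11, and 11, 12 and 12 genes were left out by a highest count of 4.

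The libraries of the other species held almost no reads of the members. At 27 of the 115 members they held none at all in 20 libraries, namely 16 members of H. burtoni, 6 of E. cyanostictus and 5 of L. attenuatus. The largest total over 20 libraries was 24 counts, at B40 and L9. Summed over all members of H. burtoni, the level was 503 to 901 CPM in its own libraries and 0.299 to 2.41 CPM in the libraries of the others. For E. cyanostictus the sums were 132 to 270 CPM in its own libraries and 0.743 to 2.63 CPM in the others. For L. attenuatus they were 313 to 682 CPM in its own libraries and 0 to 2.45 CPM in the others. No library of another species came near the level of the expressing one, as the choice of members requires.

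**Figure D1:**
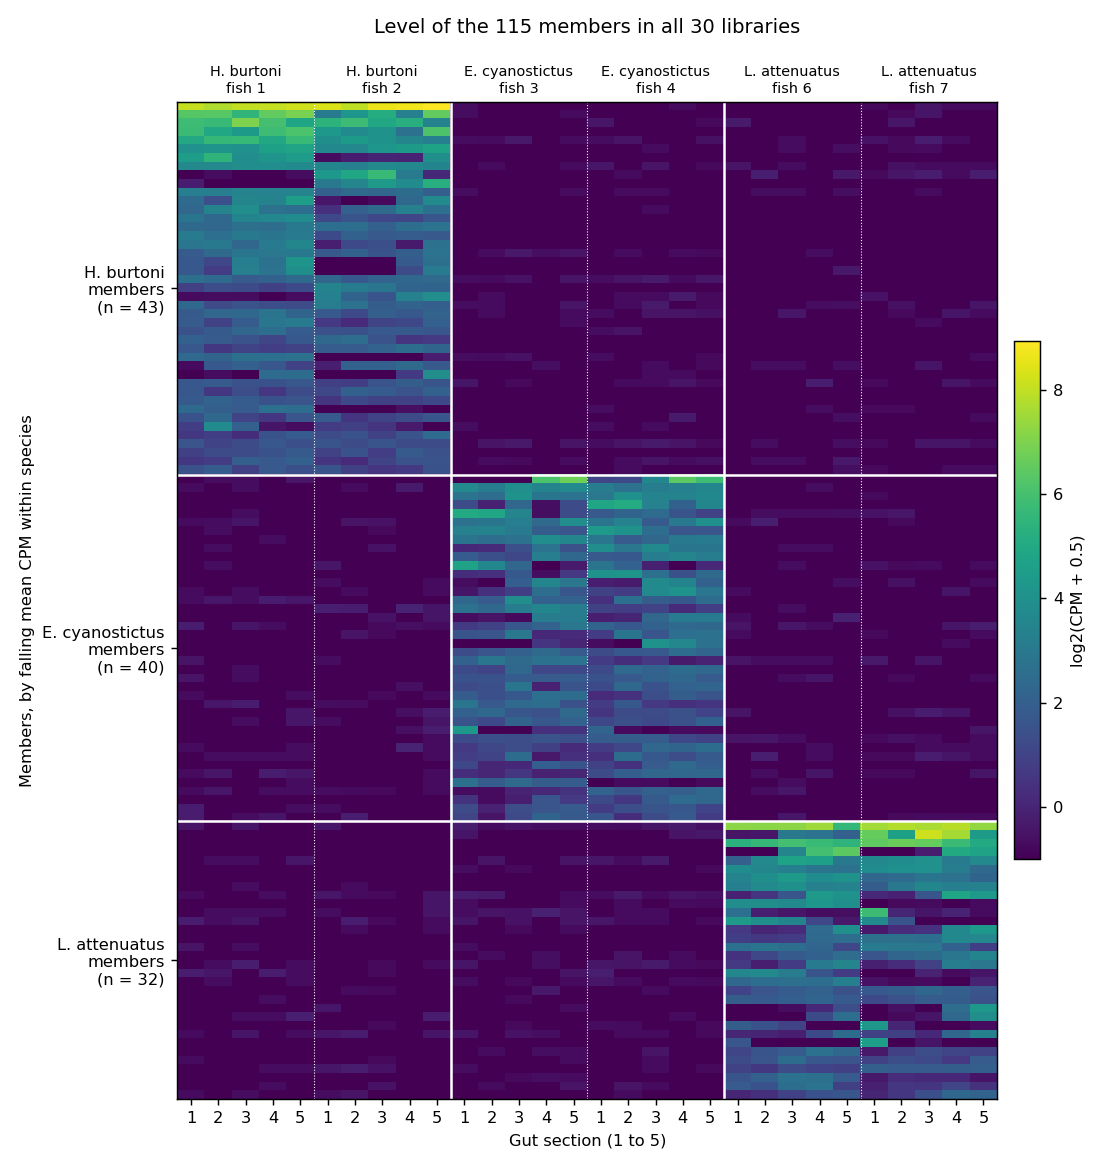
Level of the 115 members (rows, by falling mean CPM within species) in the 30 libraries (columns, by species, fish and section), as log2(CPM + 0.5). Each block of members is bright in the 10 libraries of 1 species only, which is how the members were chosen. Within the bright blocks, dark stretches show members missing from 1 fish or from some sections.

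A single gene dominated the H. burtoni members. B1 had 262, 213, 257, 264 and 292 CPM in sections 1 to 5 of fish 1, and 329, 252, 398, 417 and 485 CPM in those of fish 2. It was high in all 10 libraries, while the libraries of E. cyanostictus and L. attenuatus held 7 counts of it in total. It made up 47.0% of the summed level of the 43 members. B8 was nearly level along the gut, at 9.59 to 14.3 CPM over the 10 libraries, against 15 counts in all 20 libraries of the others.

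In L. attenuatus the highest member, L1, made up 36.8% of the summed level. It had 148, 143, 146, 176 and 47.0 CPM in sections 1 to 5 of fish 6, and 189, 218, 204, 233 and 157 CPM in those of fish 7. Section 5 was the lowest section in both fish. L3, at 32.7 to 103 CPM over its 10 libraries, had 0 counts in the 20 libraries of the other species.

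The members of E. cyanostictus were fainter, and only E1 and E2 reached 10 CPM. E1 made up 16.4% of the summed level. It had 0 counts in sections 1 to 3 of fish 3 and 68.1 and 105 CPM in its sections 4 and 5. In fish 4 it had 1.58, 1.78, 11.8, 86.5 and 56.6 CPM in sections 1 to 5. Both fish were high in sections 4 and 5, and sections 1 to 3 were lower in both. E2 was present throughout, at 6.06 to 14.0 CPM over 10 libraries.

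Detection was uneven over the libraries of the expressing species. More than 3 counts were found in all 10 libraries of the species at 30 of the 43 members of H. burtoni, 22 of the 40 of E. cyanostictus and 16 of the 32 of L. attenuatus. At 6, 3 and 7 members in that order, at most 5 of the 10 libraries passed 3 counts. A mean over 10 libraries therefore rested on few libraries at those members. Among them, B9, B10, B23, B30, B36, E36 and L10 were missing from a whole fish and not from sections. The shares over all genes were not computed, so nothing is read from these counts.

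The section effect was then tested within the expressing species, as the 4 differences from section 1 in a fit over all genes of that species (F-test of edgeR's quasi-likelihood method, p-values adjusted by Benjamini-Hochberg, 2 fish a section). All 115 members passed the filter on low counts in the species that expressed them, where the rule had placed them over 2 CPM. Among the members of L. attenuatus, 10 of 32 (31.2%) were called at an adjusted p under 0.05, against 9.35% of all genes tested in that species and 10.6% of those at 2 CPM or more. Of these members, 7 had more than 3 counts in at most 5 of their 10 libraries, and 5 of the 7 were called. Such genes met the floor only through the sections where they were high, as L11, L23, L24 and L26 did, so the share is a description and nothing is read from it. Of the 16 members with more than 3 counts in all 10 libraries, 2 were called. Among those of H. burtoni 2 of 43 (4.65%) were called, against 4.30% of all genes and 4.75% of those at 2 CPM or more. There, 1 of the 6 members with at most 5 libraries over 3 counts was called. Of the 30 H. burtoni members with more than 3 counts in all 10 libraries, 0 were called. Nothing is read from a share of so few calls. Among those of E. cyanostictus 0 of 40 were called, against 0.00482% of all genes (1 gene) and 0.00569% of those at 2 CPM or more. At an unadjusted p under 0.05 there were 7 of the 40, against 7.43% of all genes. DESeq2 called 5 of the 40, against 5.16% of all genes.

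A fit with the fish as a block compares sections within the same intestine. It called 16 of 32 members in L. attenuatus (22.5% of all genes), 5 of 43 in H. burtoni (12.3% of all genes) and 2 of 40 in E. cyanostictus (1.83% of all genes). The 23 members called with the block included all 12 called without it. These section calls do not all rest on both fish alike. B9, called with the block (edgeR adjusted p = 0.0146), had 2 counts in fish 1 and 961 counts in fish 2. L2, also called with the block (edgeR adjusted p = 0.0495), had 137 counts in fish 6 and 5429 counts in fish 7. In a fit with the other species, each fish of the expressing species was also left out, which leaves 1 fish per section. In all 3 species fewer members were then called than in the fit of all 30 libraries. Shares over all genes were not computed for these fits, so their calls are not counted here.

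Between the ends of the gut, 8 members of L. attenuatus were higher in section 5 than in section 1 (7.83% of all genes were higher) and 5 were lower (7.88% of all genes), by the same test at an adjusted p under 0.05. With the block, 9 were higher (14.6% of all genes) and 9 lower (14.4% of all genes). In H. burtoni 2 members were higher (3.94% of all genes) and 0 lower (3.60% of all genes), with 7 members of either direction at an unadjusted p under 0.05 (24.7% of all genes). With the block 5 were higher (8.71%) and 3 lower (8.52%). In E. cyanostictus 0 were higher (0.0241% of all genes) and 0 lower (0.00482% of all genes), with 6 members at an unadjusted p under 0.05 (10.2% of all genes). DESeq2 called 2 higher (2.72% of all genes) and 3 lower (1.50% of all genes) there. With the block, 0 were higher (1.46%) and 3 lower (1.28%) there. The calls include members that met the floor only through sections at 1 end, such as L4 and L22 among the rises and L11 and L26 among the falls. The counts are therefore a description, and nothing is read from them against the shares of all genes.

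The size of the end-to-end changes is given as a description. Members that met the floor only through sections at 1 end, such as L11 and L26, have large changes by that choice. Nothing is therefore read from the difference between members and all genes. The median absolute log2 fold change of section 5 over section 1 was 1.78 over the members of L. attenuatus and 0.55 over all genes tested there. It was 0.80 over the members and 0.49 over all genes in H. burtoni, and 0.68 and 0.43 in E. cyanostictus in the same order. The standard errors of members were larger as well, with a median of 0.79 against 0.37 over all genes in L. attenuatus. Fitted changes were positive at 14 and negative at 18 members of L. attenuatus. They were positive at 27 and negative at 16 in H. burtoni, and at 28 and 12 in E. cyanostictus. Signed medians were -0.17 over the members of L. attenuatus, 0.30 over those of H. burtoni and 0.39 over those of E. cyanostictus. Over all genes they were 0.03, -0.01 and -0.12. Setting members with 0 counts at an end to their bounds left these medians as they were. That had to be so, because such members stayed on the same side of the medians, so it is no check of them.

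**Figure D2:**
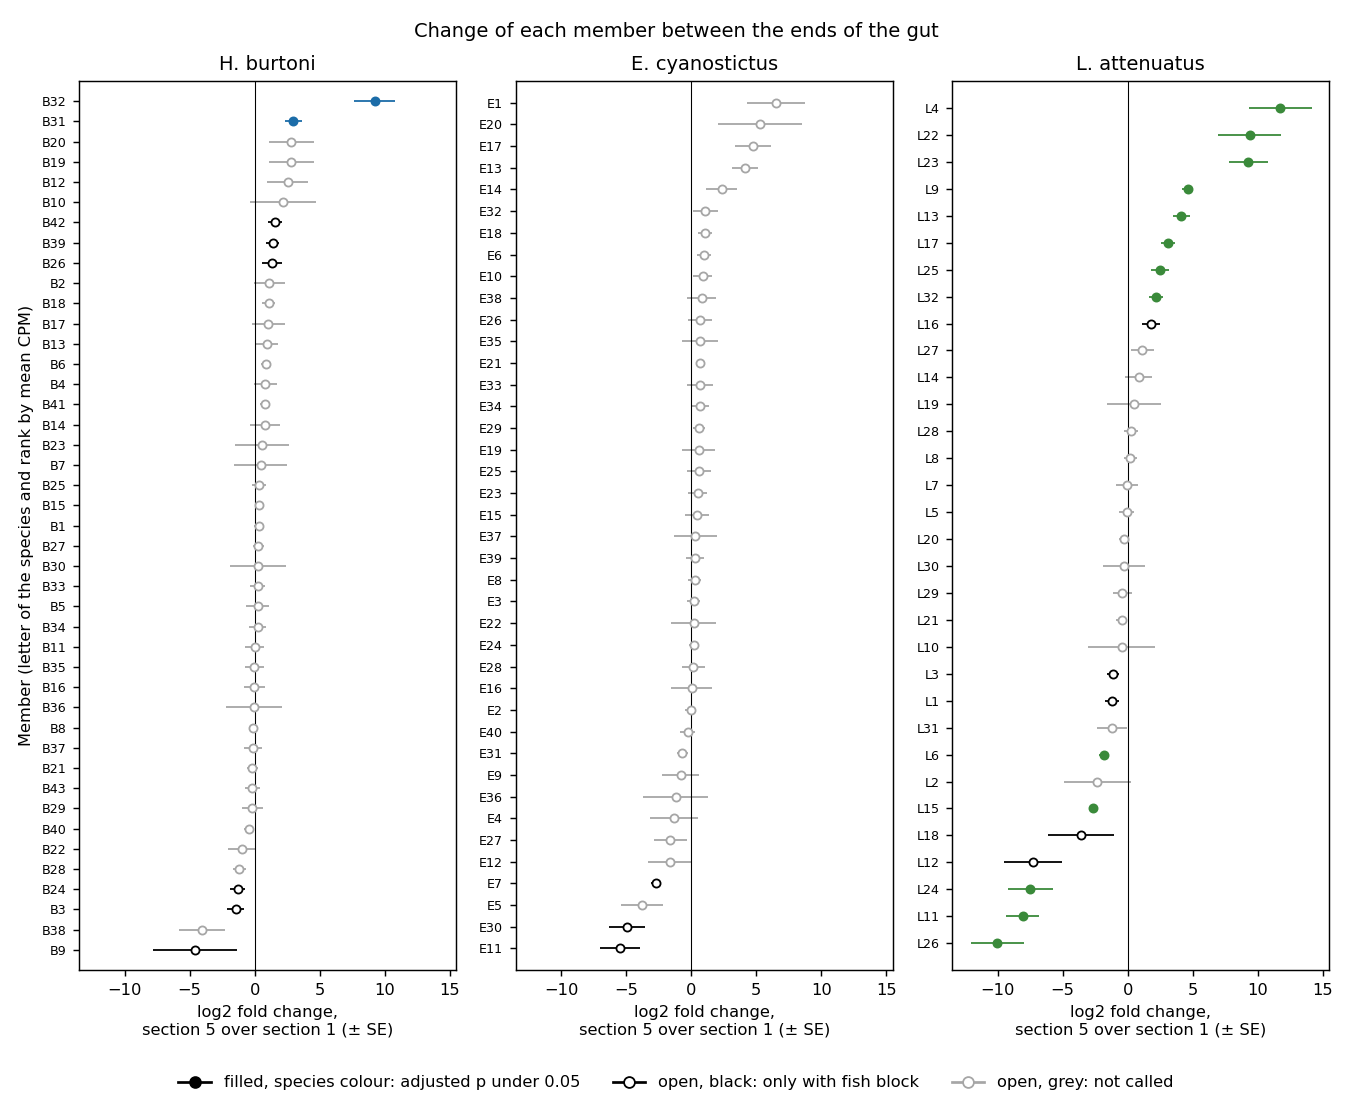
Log2 fold change of section 5 over section 1 for each member in the species that expressed it, with its standard error (edgeR, 2 fish per section). In L. attenuatus 8 members lie to the right and 5 to the left as called members, against 2 and 0 in H. burtoni and none in E. cyanostictus, and the open black points are called only with the fish block. Values beyond about 9 in either direction belong to members with 0 counts at 1 end, where the fitted size is not a bound.

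In L. attenuatus L4 (gene ID 100706417) and L22 (gene ID 100704512) had the largest fitted values among the called rises toward section 5. Both had 0 counts in section 1, where the fitted value depends on a prior count, so this order is one of the fit and not of measured folds. L4 had 0 counts in sections 1 and 2 of both fish. Its level was 11.0, 60.9 and 84.9 CPM in sections 3 to 5 of fish 6 and 0.359, 32.4 and 25.5 CPM in those of fish 7. Sections 4 and 5 thus stood above the others in both fish. Section 5 averaged 55.2 ± 42.0 CPM and section 1 had 0 counts (SD, n = 2), which makes section 5 at least 175-fold higher, taking 3 counts per library as the floor (edgeR adjusted p = 0.0248, or 0.00139 with the block). This and the later bounds of this kind compare means over both fish, so a single fish can lie below them. The 20 libraries of the other species held 0 counts of L4.

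L22 followed with lower counts. It had 0, 0, 0.130, 0.613 and 2.08 CPM in sections 1 to 5 of fish 6 and 0, 0.176, 0, 5.36 and 19.3 CPM in those of fish 7. Section 5 was the highest in both fish, by different amounts. In the mean of both fish, section 5 was at least 33.9-fold over section 1 by the same floor (edgeR adjusted p = 0.0426, or 0.000562 with the block). L4 and L22 met the mean of 2 CPM only through the sections where they were high. Their p-values are therefore not independent of their choice. The calls at L4 and L22 were lost when either fish was left out and when no filter on low counts was used, where the adjusted p-values were 0.147 and 0.108.

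Among the called falls, L26 (gene ID 100695053) and L11 (gene ID 100702521) had the largest fitted values, and at both most counts were in section 1. The place of L26 also rests on 0 counts, in section 5. L26 had 0 counts in section 5 of both fish, against 2.69 CPM in section 1 of fish 6 and 23.0 CPM in that of fish 7. Of its sections 2 to 4, only section 3 of fish 7 held counts, at 0.240 CPM. L26 met the mean of 2 CPM only through section 1, so its p-values are not independent of its choice. In the mean of both fish, section 1 was at least 32.1-fold higher than section 5 (edgeR adjusted p = 0.0335, or 0.000475 with the block). This call was lost with DESeq2 (adjusted p = 0.179), with no filter on low counts (0.100) and without either fish.

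L11 had 0.149 CPM in section 5 of fish 6 and 0.118 CPM in that of fish 7, against 5.59 CPM in section 1 of fish 6 and 55.6 CPM in that of fish 7. The 2 counts in section 5 and 591 in section 1 gave a ratio of 237 for section 1 over section 5, with an exact 95% counting interval of 65.2 to 1958. L11 met the mean of 2 CPM only through section 1, so its p-values are not independent of its choice. In edgeR the fitted log2 fold change came to -8.08 (SE 1.27), at an adjusted p of 0.00529, or 9.95e-05 with the block. Without fish 7, in the fit of all species, it was -5.69 and no longer passed (adjusted p = 0.175). At both L26 and L11 fish 7 was the higher fish in section 1.

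**Figure D3:**
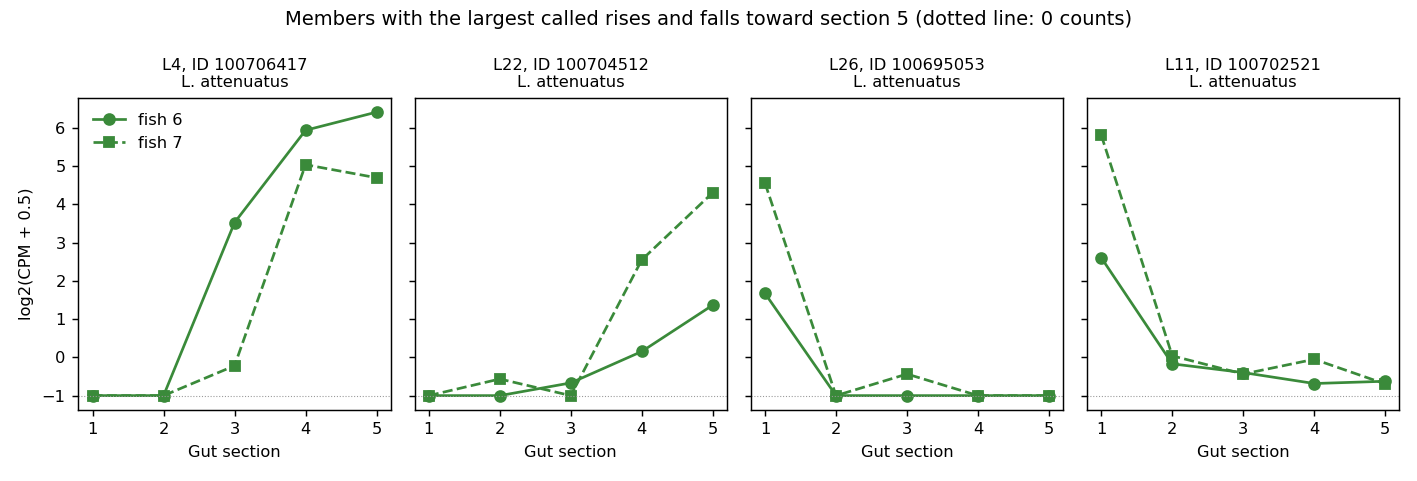
Level of the 4 members with the largest fitted values among called changes in each section of the 2 L. attenuatus fish, as log2(CPM + 0.5), where the dotted line at -1 marks 0 counts. L4 and L22 are highest in sections 4 and 5, with 0 counts in section 1, and L26 and L11 mainly in section 1, where fish 7 is above fish 6.

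Several other members of L. attenuatus had the same 2 kinds of profile. L9 was the steadiest riser between fish, with 16.4 and 19.5 CPM in section 5 of fish 6 and fish 7, against 0.430 and 0.619 CPM in section 1 (log2 fold change 4.61, SE 0.43, edgeR adjusted p = 0.000551). It was highest in section 4, at 19.9 and 28.4 CPM. Like L4 and L22, it met the mean of 2 CPM only through its high sections. L13 rose by a log2 fold change of 4.13 (SE 0.66) and L17 by 3.11 (SE 0.52), with low values through section 3 and a step at section 4 in both fish. L23 had 0 counts in section 1 of both fish and was at least 31.6-fold higher in section 5. L25 and L32 were the other called risers, at 2.48 (SE 0.67) and 2.19 (SE 0.56). L13, L17, L23, L25 and L32 also met the mean of 2 CPM only through their high sections. The calls at these members and at L9 are therefore not independent of their choice.

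Among the falling members, L24 resembled L11 with 1 count in section 5 and 210 in section 1, a ratio of 168 for section 1 over section 5 with an exact 95% counting interval of 29.9 to 6673. L15 and L6 were lowest in section 5 of both fish. L15 had 1.64 and 1.30 CPM in section 5 of fish 6 and fish 7 and 5.59 and 8.26 CPM in section 1 (log2 fold change -2.68, SE 0.33, edgeR adjusted p = 0.00184). At L15 and L6 no section was empty. For L12 the edgeR adjusted p was 0.00265 with the fish block and 0.0647 in the fit that lacks it, so it passed in the blocked fit alone. It had 186, 114, 81, 14 and 2 counts in sections 1 to 5 of fish 6, and 123 and 28 counts in sections 1 and 2 of fish 7 with 0 counts from section 3 on. L24 met the mean of 2 CPM only through section 1 and L12 only through sections 1 to 3. The calls at L24 and L12 are therefore not independent of their choice.

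In H. burtoni the 2 called members were B31 and B32. B32 was highest in section 5, with 0 counts in section 1 of both fish. It had 5.04 and 5.18 CPM in sections 4 and 5 of fish 1, and 1.11 and 14.5 CPM in those of fish 2. Section 5 was at least 26.8-fold higher than section 1 (edgeR adjusted p = 0.0231, or 0.0191 with the block). B32 met the mean of 2 CPM only through sections 4 and 5, so these p-values are not independent of its choice. B31 was low in section 1 only. It had 1.43 and 2.87 CPM in section 5 of fish 1 and fish 2 and 0.112 and 0.397 CPM in section 1, with 2.70 to 4.91 CPM in sections 2 to 4 (log2 fold change 2.97, SE 0.67, edgeR adjusted p = 0.0338). With the block, B38 also had a section effect (edgeR adjusted p = 0.0217). It was highest in section 2 of both fish, at 13.2 and 1.34 CPM, and had 0.130 and 0 CPM in section 5. B38 met the mean of 2 CPM only with section 2, so this p-value is not independent of its choice.

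In E. cyanostictus the fit with the block called E7 and E30 for the section effect. It called E7, E11 and E30 as lower in section 5 than in section 1. E7 had 2.58 and 2.56 CPM in section 5 of fish 3 and fish 4, against 9.57 and 20.1 CPM in section 1 (log2 fold change -2.71, SE 0.39 without the block, edgeR adjusted p = 0.0858, or 0.0248 with it). E30 was nearly confined to section 1, at 0.858 and 0.0949 CPM in section 5 of fish 3 and fish 4, against 19.0 and 4.08 CPM in section 1. E30 met the mean of 2 CPM only through section 1 and E11 only through sections 1 to 3. The calls at E11 and E30 are therefore not independent of their choice. The profile of E1, high in sections 4 and 5, gave a large fitted change (6.53, SE 2.23) that did not pass in either fit (edgeR adjusted p = 0.368, or 0.110 with the block).

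**Figure D4:**
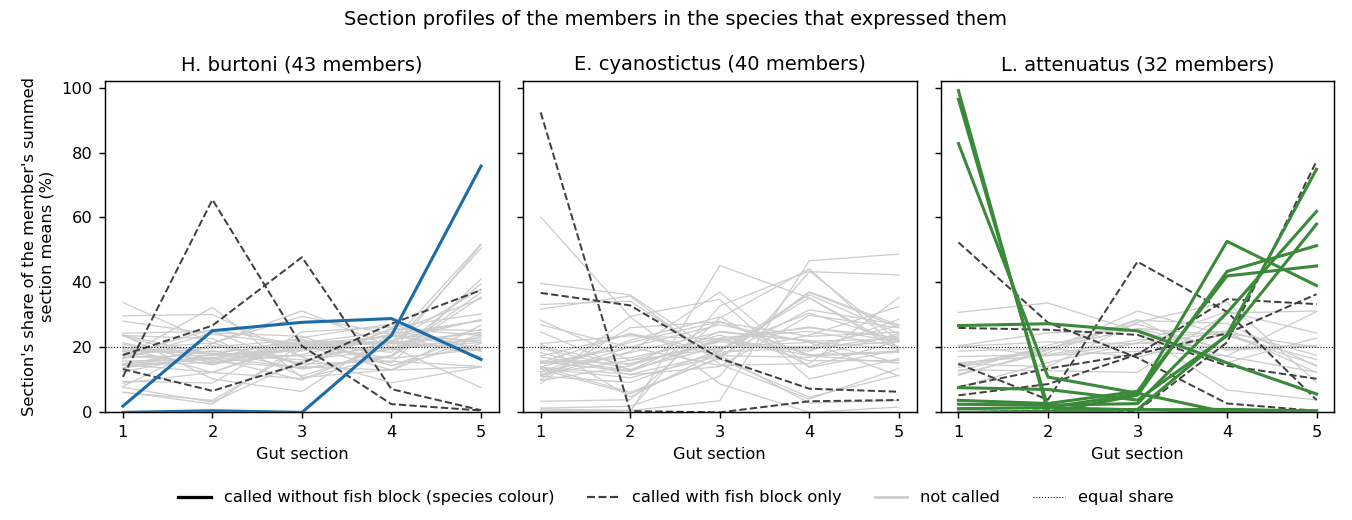
Share of each section in the sum of a member's 5 section means (%, 20% for equal sections), in the species that expressed it. Coloured lines are members with a called section effect (2 in H. burtoni, 0 in E. cyanostictus, 10 in L. attenuatus), dashed lines those called only with the fish block, and grey lines the rest. The called members of L. attenuatus mostly peak in section 1 or in sections 4 and 5.

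Where along the gut the members peaked was described by their mean over both fish. In H. burtoni 20 of 43 members (46.5%) were highest in section 5, as were 42.0% of all genes at 2 CPM or more in that species. Section 1 was the highest for 11.6% of the members, against 24.4% of those genes. In E. cyanostictus 13 of 40 (32.5%) peaked in section 4 (19.6% of genes). In L. attenuatus section 4 was the highest for 21.9% of the members, against 33.6% of genes, and section 1 for 15.6%, against 8.32% of genes. Both fish had the same highest section at 22 of 43 members in H. burtoni (37.9% of genes at 2 CPM or more), at 13 of 40 in E. cyanostictus (23.1%) and at 18 of 32 in L. attenuatus (38.1%). The 22 include B23, B30 and B36, where 1 fish had at most 3 counts in each library. Its highest section there rests on almost no reads. The choice can also favour a shared peak, because a gene high in 1 section could pass through that section alone. Nothing is therefore read from these shares.

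The summed level of the members also varied along the gut. In H. burtoni it was 644, 617, 691, 709 and 815 CPM in sections 1 to 5 of fish 1, and 545, 503, 672, 637 and 901 CPM in those of fish 2. It was highest in section 5 in both fish. In E. cyanostictus it was 185, 132, 175, 223 and 255 CPM in fish 3 and 168, 185, 194, 270 and 235 CPM in fish 4. In L. attenuatus it was 313, 324, 381, 460 and 334 CPM in fish 6 and 545, 426, 682, 649 and 399 CPM in fish 7. The highest section differed between the fish of these 2 species, and fish 7 was above fish 6 in all 5 sections. In section 3, L1 and L2 had 204 and 289 CPM in fish 7, against 146 and 7.39 CPM in fish 6. The difference between these fish in that section thus rested on those members.

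The 2 fish of a species often differed in the members they expressed. This is a description, since 2 fish give no replicate of a difference between fish. At least a 4-fold difference in mean CPM between fish 1 and fish 2 was found at 9 of 43 members (20.9%), against 0.737% of all H. burtoni genes at 2 CPM or more. Between fish 3 and fish 4 it was found at 10 of 40 members (25.0%), against 4.06% of genes, and between fish 6 and fish 7 at 8 of 32 members (25.0%), against 1.46% of genes. The choice of members favours such differences, because the floor of 2 CPM was a mean over both fish. A gene high in 1 fish could pass through that fish alone, as B30 and B36 did. Asking for 2 CPM in each fish left 28, 23 and 17 members. The genes at 2 CPM or more were taken by the same mean, but not by the ceiling of 3 counts in the other species. Whether that ceiling adds to the difference was not tested. Low counts can add to differences between fish too, and most members were low. Their part was not tested. Among members of 2 to 5 CPM the counts were 5 of 27, 7 of 28 and 5 of 17 in the 3 species in that order, against 1.44%, 4.90% and 2.27% of all genes in that range. Of the members past 4-fold, 6 were higher in fish 1 and 3 in fish 2. In fish 3 and fish 4 the split was 5 and 5, and in fish 6 and fish 7 it was 4 and 4.

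At 7 members, 1 fish had at most 3 counts in each of its 5 libraries while the other expressed the gene. There were 5 in H. burtoni (0.0819% of genes at 2 CPM or more had such a pattern), 1 in E. cyanostictus (0.0285%) and 1 in L. attenuatus (0.0782%). B30 and B36 were seen in fish 1, with 215 and 182 counts over its 5 sections, against 3 and 1 counts in fish 2. B9, B10 and B23 were seen in fish 2, with 2, 3 and 4 counts in fish 1, against 961, 738 and 311 counts in fish 2. E36 had 178 counts in fish 3 and 3 counts in fish 4. L10 had 584 counts in fish 6 and 3 counts in fish 7. These 7 members therefore passed 3 counts in a library of only 1 fish out of 6. They met the mean of 2 CPM only through that fish.

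Among these, L10 was level along the gut of fish 6, at 14.0, 14.5, 12.4, 18.0 and 14.7 CPM in sections 1 to 5. B30 was level in fish 1 too, with 6.22 CPM in section 5 and 4.72 CPM in section 1. B9 varied along the gut of fish 2, with 19.2, 28.9, 51.8, 7.76 and 0.598 CPM in sections 1 to 5. L2 was the largest of the members with an uneven presence. It had 0.215, 0.260, 7.39, 6.38 and 3.57 CPM in sections 1 to 5 of fish 6, and 95.1, 24.7, 289, 191 and 20.9 CPM in those of fish 7. Fish 7 was above fish 6 in every section, and section 3 was the highest in both.

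**Figure D5:**
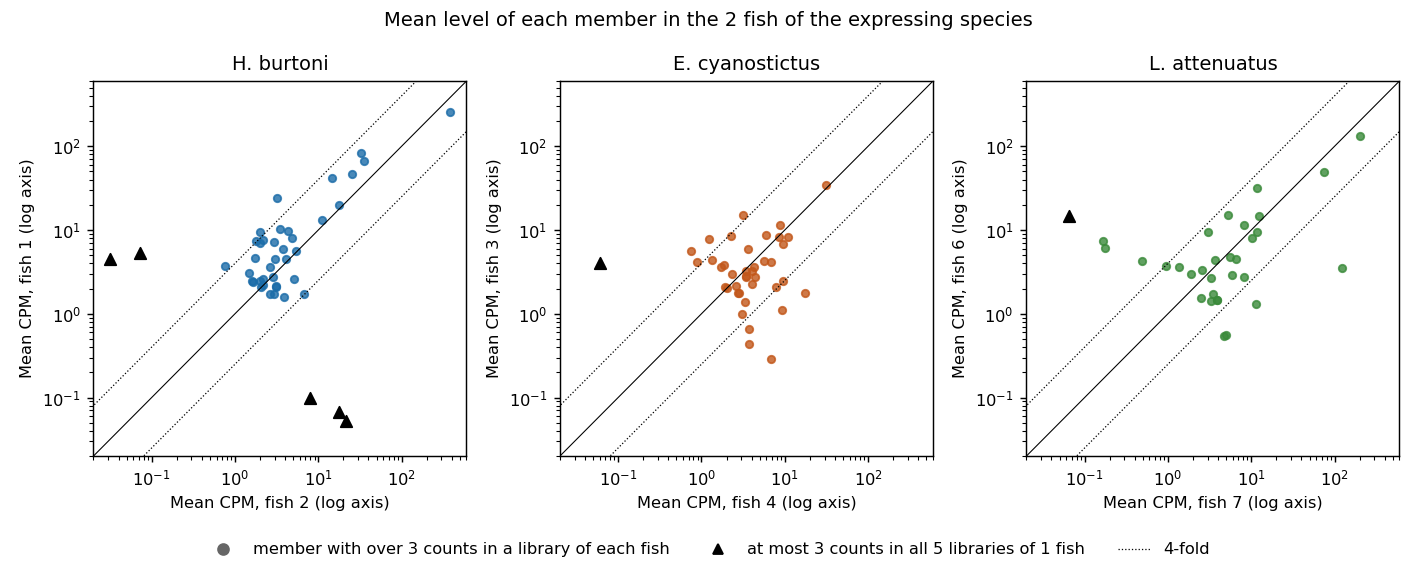
Mean CPM of each member in the first fish (vertical) and second fish (horizontal) of the species that expressed it, both on log axes, with dotted lines at a 4-fold difference. Outside these lines lie 9 members of H. burtoni, 10 of E. cyanostictus and 8 of L. attenuatus, and triangles mark the 7 members with at most 3 counts in every library of 1 fish.

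Some members ran in parallel over libraries. Profiles were compared by Pearson's r of log2(CPM + 0.5) over the 10 libraries of the species, which come from 2 fish and are not independent, so the values are a description. An r of at least 0.95 linked 8 of 903 pairs of members in H. burtoni (0.886%, against 0.129% of all pairs of genes at 2 CPM or more). In E. cyanostictus it linked 3 of 780 pairs (0.385%, against 0.396%), and in L. attenuatus 7 of 496 (1.41%, against 0.423%). In H. burtoni the largest set was B11, B14, B16, B30 and B36, linked through such pairs, with r of 0.903 to 0.979. All 5 were higher in fish 1 than in fish 2. An r over these libraries can follow the fish as well as the sections. B12, B19 and B20 formed another set, with r of 0.989 to 0.991. In fish 2 these had 0 to 2 counts in sections 1 to 3 and 12 to 104 counts in sections 4 and 5, while fish 1 had at least 9 counts in every section. B19 had 132 counts in section 5 of fish 1 and 49 in that of fish 2, and B20 had 116 and 68. In L. attenuatus the largest set was L9, L13, L17, L22 and L23, linked through such pairs, with r of 0.776 to 0.981. A pair there, L11 and L26 (r = 0.987), was the section 1 pair already described. Its r rests mainly on section 1, through which both met the floor. Members that passed through the same fish or section can be alike by that choice. Nothing is therefore read from the shares of pairs.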

How the data were processed

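RNA of 30 intestine sections was sequenced with Illumina TruSeq libraries, per the labels' protocols. The authors deposited 1 table of raw counts per gene. Trimmomatic, STAR and HTSeq are named in the submitters' processing notes. Versions, build and annotation are not given in the sources used here. The 5 rows that name no gene were left out of library sizes and tests; 3 were 0 throughout, reads on no gene feature were 6.15% to 16.5% of a library and ambiguous reads 2.58% to 3.45%. CPM scaled each count by its library's total of counts on genes. The members, lists and rules were chosen with earlier results of these data known.

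Tests used edgeR 4.0.16 in R 4.3.3 (filterByExpr, TMM, robust quasi-likelihood F-test), 1 fit per species over all its genes, with Benjamini-Hochberg adjustment. The fitting code was tested on simulated counts with no difference between fish. That was a check of the code and not of the calls on members. The SE is the absolute log2 fold change divided by the square root of F. Counting intervals are exact and cover counting error only. DESeq2 1.42.0 was an alternative. Columns of E. cyanostictus and L. attenuatus carry fish numbers that the labels do not, so fish were identified by column name. Differences between the 2 fish correlated over genes in all 10 pairs of sections. The r was 0.235 to 0.733 in H. burtoni, 0.283 to 0.858 in E. cyanostictus and 0.347 to 0.752 in L. attenuatus. The fit with the fish as a block therefore treated sections as paired by fish. The main fit had section as its only term and did not use this pairing.

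By rule, the 2 called IDs with the largest fitted rise and the 2 with the largest fitted fall were printed, and other members by rank. The comparison of fish among genes of 2 to 5 CPM, the count of members missing in 1 fish, the highest sections, the shares among genes at 2 CPM or more, the counts of members by libraries over 3 counts and the alike profiles were added after the data were seen.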

Additional observations from a re-analysis of the deposited data

How the results depend on the processing

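The number of members depended on both limits. Given in the order H. burtoni, E. cyanostictus, L. attenuatus, there were 16, 6 and 5 members with a ceiling of 0 counts, and 79, 117 and 104 with a ceiling of 10, where the limit of 300 genes applied. A floor of 1 CPM gave 77, 96 and 69 members, a floor of 5 CPM gave 16, 12 and 15, and a floor of 2 CPM in each fish gave 28, 23 and 17. Leaving out single fish gave 39 to 53, 35 to 54 and 29 to 40 members. Without the most abundant member, the summed level was 357 CPM in H. burtoni and 285 CPM in L. attenuatus, against 673 and 451 CPM with it. A 2-fold limit between fish gave 20, 18 and 19 members.

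Calls of the section effect were 5, 2 and 16 with the fish as a block, which pairs sections of 1 intestine. Section 5 was then higher at 5, 0 and 9 members and lower at 3, 3 and 9. DESeq2 called 5 members of E. cyanostictus for sections, 2 higher and 3 lower. The fit of all 30 libraries called 4 there, 1 higher and 2 lower, and 1 higher in H. burtoni. No filter on low counts left 3 lower members in L. attenuatus. An adjusted p under 0.01 left 0 calls in H. burtoni, and 5 for sections, 4 higher and 2 lower in L. attenuatus. The fit of all 30 libraries called 2 members of H. burtoni and 11 of L. attenuatus for sections. Without single fish, that fit assumes that a lone fish varies like the others. It then called fewer members for sections in all 3 species. Shares over all genes were not computed for the fits of all species, the unfiltered fit or the stricter limit. Nothing is therefore read from their counts. The causes of these differences were not tested. The alternatives were run for single members only at L4, L22, L26 and L11, and none turned their direction. The block turned the sign of the fitted section 5 over section 1 change at 6 of 115 members, of which 0 were called in either fit and whose largest absolute log2 value was 0.23. Differences between fish cannot be recomputed without a fish.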

Other observations

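The ID numbers of the members were higher than those of other expressed genes, a pattern noticed after the data were seen. IDs from 102000000 upward belonged to 31 of the 43 members of H. burtoni (72.1%), 16 of the 40 of E. cyanostictus and 16 of the 32 of L. attenuatus (50.0%). Among all genes at 2 CPM or more in these species they made up 15.3%, 15.6% and 15.3%, and among all 38425 rows 46.1%. What the numbering stands for is not given in the sources used here.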
